A study of Homo sapiens with 8 samples.

Results

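The genes described here encode the human aminoacyl-tRNA synthetases of the cytosol and of the mitochondria, with AIMP1, a scaffold of the complex in which several cytosolic synthetases sit. They were taken from a list of 36 genes by symbol. The list holds 19 cytosolic genes, 16 mitochondrial genes, whose symbols end in 2, and AIMP1. Of the probe sets listed with a gene's symbol alone, the brightest over the 8 arrays was used. That was possible for 33 of the 36 genes, out of 19775 genes on the array: 17 cytosolic, 15 mitochondrial and AIMP1. MARS1, QARS1 and TARS2 were left out because each of their probe sets was listed with more than 1 symbol.

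The cells were Kasumi-1, a cell line from an acute myeloid leukemia that carries the AML-ETO translocation. They were electroporated with mRNA made in vitro that encoded wild type NR4A1 (NR4A1 WT, 3 arrays), NR4A1 with a mutated DNA binding domain (NR4A1 CEAA, 2 arrays) or GFP as the control (3 arrays), and total RNA was collected after 6 h. NR4A1 is an orphan nuclear receptor, and its protein is described as missing from unmanipulated Kasumi-1 cells. All arrays share the electroporation, a foreign mRNA and the parent line. Expression was read on Affymetrix U133 Plus 2.0 arrays as log2 probe set values. Each group is thus a model of 1 cell line shortly after a pulse of mRNA.

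An aminoacyl-tRNA synthetase joins an amino acid to the tRNAs that carry its anticodons, and the ribosome takes those charged tRNAs to build protein. Human cells keep a set of these enzymes for the cytosol and a largely separate set, encoded in the nucleus and imported, for the mitochondria. KARS1 and GARS1 are known to serve both compartments. In the cytosol, several synthetases assemble on the scaffolds AIMP1, AIMP2 and EEF1E1 into the multi-synthetase complex. The cytosolic genes are also known targets of ATF4, the transcription factor that answers a lack of amino acids, and of MYC. MYC and its partner MAX bind the E-box, and ATF4 with a C/EBP protein binds a composite element, so the promoters were searched for both.

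All 5 measured markers of the Kasumi-1 myeloblast lay above the array medians in every array, MPO at 14.34 to 14.43 and KIT at 13.45 to 13.78 on the log2 scale. Their mean was 10.51 to 10.58 in NR4A1 WT arrays, 10.69 to 10.72 in NR4A1 CEAA arrays and 10.58 to 10.68 in GFP arrays. Of the defining markers of other cells, EPCAM was high as well, at 11.43 to 11.86, while the epithelial markers KRT19 and CDH1 lay below the medians. The mean of the epithelial list was 6.25 to 6.36 in NR4A1 WT arrays, 6.44 to 6.58 in NR4A1 CEAA arrays and 6.31 to 6.50 in GFP arrays. Of the T cell, B cell, erythroid and fibroblast markers, 5 of 10 lay above the medians in all arrays, the highest of them COL1A1 at 7.27 to 7.61. The part of these values in the results was not tested. The brightest NR4A1 probe set averaged 6.54 in NR4A1 WT, 6.54 in NR4A1 CEAA and 6.45 in GFP arrays, so it gives no check of the labels. The SD of the difference between 2 arrays over all genes was 0.147 to 0.208 within groups and 0.319 to 0.341 between NR4A1 WT and GFP. In RNA from a whole culture, less RNA per cell and fewer cells of a type cannot be told apart. The labels do not say that the replicates were separate cultures, so the p-values below measure the spread between these arrays, which may be technical.

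The promoter sequences of the members are shown first because the MYC and ATF4 elements were searched in them. RefSeq (GRCh38.p14) gave a window of 250 bases before to 50 bases after the start for 31 of the 36 genes. AARS2, LARS1, VARS1, VARS2 and YARS1 had none. The E-box CACGTG, which reads the same on both strands, was found in the windows of 1 cytosolic and 3 mitochondrial members. Of all 27305 genes with a window, 8.77% held it. The members with it were few, and whether their share differs from that of all genes was not tested. The 4 sites are shown with 17 bases on either side, on the strand of the gene, with the E-box in capitals. They lie at chr2:197705341-197705380 on the plus strand for MARS2, and on the minus strand at chr16:23557343-23557382 for EARS2, chr13:110706496-110706535 for CARS2 and chr9:92293861-92293900 for IARS1.
MARS2: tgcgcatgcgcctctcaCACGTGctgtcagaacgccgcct
EARS2: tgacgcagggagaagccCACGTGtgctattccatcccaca
CARS2: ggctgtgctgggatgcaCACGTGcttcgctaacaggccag
IARS1: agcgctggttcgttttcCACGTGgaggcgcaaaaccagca

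The first base of the E-box stood at -11 from the start in MARS2, at -3 in CARS2 and at -186 in IARS1. In EARS2, which has 2 annotated starts, it stood at -15 from one and at 11 from the other. The whole window of MARS2, the member with the largest fall after NR4A1 WT, runs over chr2:197705119-197705418 on the plus strand of GRCh38.p14 and is shown for its context, again with the E-box in capitals.
MARS2 window: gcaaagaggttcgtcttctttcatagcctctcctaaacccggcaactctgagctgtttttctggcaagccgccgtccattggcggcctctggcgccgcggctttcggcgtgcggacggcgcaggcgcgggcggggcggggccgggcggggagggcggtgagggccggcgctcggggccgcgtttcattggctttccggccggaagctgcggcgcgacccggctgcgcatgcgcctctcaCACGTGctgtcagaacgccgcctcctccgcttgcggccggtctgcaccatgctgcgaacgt

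The second element searched was the C/EBP-ATF response element, in the letters TGATGNAA on either strand. It was found in 7 of the 16 cytosolic members with a window, in 1 of the 14 mitochondrial members (YARS2) and in 4.46% of all genes with a window. The 7 cytosolic sites are shown on the strand of the gene with the element in capitals, which in 6 of them is read on the opposite strand. They lie at chr16:70289669-70289710 (AARS1, minus strand), chr11:3057401-3057442 (CARS1, minus), chr7:30594828-30594869 (GARS1, plus), chr9:92293686-92293727 (IARS1, minus), chr12:57488047-57488088 (MARS1, plus), chr18:57621798-57621839 (NARS1, minus) and chr5:33440950-33440991 (TARS1, plus).
AARS1: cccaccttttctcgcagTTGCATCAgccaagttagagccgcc
CARS1: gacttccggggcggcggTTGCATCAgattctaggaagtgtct
GARS1: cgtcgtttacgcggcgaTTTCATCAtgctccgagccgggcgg
IARS1: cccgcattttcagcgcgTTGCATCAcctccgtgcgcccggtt
MARS1: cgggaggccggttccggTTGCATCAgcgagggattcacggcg
NARS1: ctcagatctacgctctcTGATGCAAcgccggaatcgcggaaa
TARS1: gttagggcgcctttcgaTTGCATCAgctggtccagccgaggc

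IARS1 held both elements, at different places. The NBRE, the monomer site of the NR4A receptors, was searched as AAAGGTCA on both strands. It was in no member's window and in 1.49% of all genes with a window. A match is a match of letters, and the absence of one says nothing of sites outside these windows.

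NR4A1 WT was compared with GFP to ask how the receptor changed synthetase mRNAs. Genes of both compartments fell. The 17 cytosolic genes all had a log2 difference below 0, from -0.54 to -0.02 with a median of -0.15, and 7 of them passed the test as lower and 0 as higher (11 and 0 at an unadjusted p under 0.05, 0 and 0 by Rank Product). Over all 19775 genes the median was 0.00, and 10.3% were lower and 9.97% higher at an adjusted p under 0.05 (limma, Benjamini-Hochberg adjustment over all genes). The 15 mitochondrial genes had a median of 0.03, with 6 below 0 and 9 above. Of these, 5 passed as lower and 1 as higher. AIMP1, at 0.07, passed in neither direction. The mitochondrial falls of MARS2 (-0.75) and EARS2 (-0.59) were larger than the largest cytosolic one, that of FARSA (-0.54). Those of NARS2 (-0.41), PARS2 (-0.33) and CARS2 (-0.28) were not. Per array, the median of the cytosolic genes relative to their GFP means was -0.16, -0.11 and -0.16 in the NR4A1 WT arrays and between -0.01 and 0.01 in the GFP arrays.

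**Figure D1:**
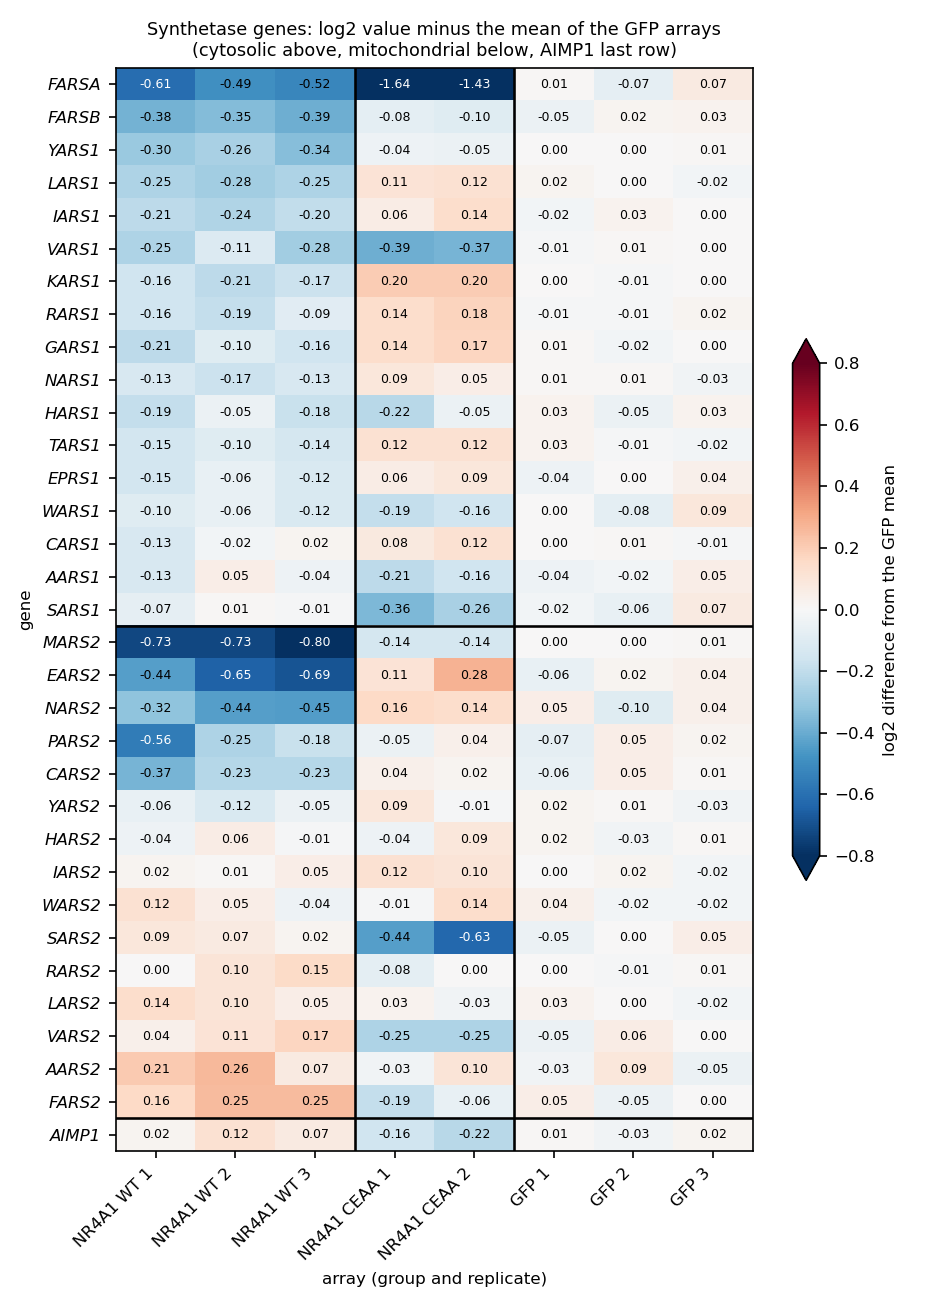
Each cell gives the log2 value of a gene (row) on an array (column) minus the mean of that gene's GFP arrays, with cytosolic genes in the upper block, mitochondrial genes in the lower block and AIMP1 in the last row; the color scale ends at 0.8 in either direction. The NR4A1 WT columns are below 0 down most of the cytosolic block, MARS2 reaches -0.80 and FARSA reaches -1.64 in an NR4A1 CEAA array.

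MARS2, which charges mitochondrial tRNA with methionine, the residue that starts every mitochondrial protein, showed the largest difference. It read 7.39, 7.39 and 7.32 in NR4A1 WT arrays and 7.98 and 7.97 in NR4A1 CEAA arrays, against 8.11, 8.11 and 8.12 in GFP arrays. No array of 1 group overlapped another group. MARS2 was 1.68-fold lower in NR4A1 WT than in GFP cells (log2 difference -0.75, SE 0.05, adjusted p = 2.3e-05). The difference of NR4A1 CEAA from GFP was -0.14 (95% interval -0.26 to -0.02, adjusted p = 0.106).

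EARS2, the mitochondrial glutamate enzyme, which also charges the glutamine tRNA there with glutamate, read 7.61, 7.40 and 7.36 in NR4A1 WT, 8.16 and 8.33 in NR4A1 CEAA and 7.99, 8.07 and 8.09 in GFP arrays. All NR4A1 WT arrays were below all GFP arrays, and the fall was 1.51-fold (log2 difference -0.59, SE 0.08, adjusted p = 0.00123). Of its 3 other probe sets, 1563796_s_at (-0.26) and 225993_at (-0.41) were lower as well, and 1555437_at was at 0.06 with no call. NARS2, the mitochondrial asparagine enzyme, read 8.60, 8.47 and 8.47 in NR4A1 WT, 9.08 and 9.06 in NR4A1 CEAA and 8.97, 8.82 and 8.96 in GFP arrays. Its fall was 1.32-fold (log2 difference -0.41, SE 0.06, adjusted p = 0.00251), with no overlap between NR4A1 WT and GFP. CARS2, for cysteine, was 1.21-fold lower (log2 difference -0.28, adjusted p = 0.0124), a call that ended without GFP replicate 2 (adjusted p = 0.0512). The 4 other probe sets of CARS2 ranged from -0.10 to 0.24 and none passed. Those at -0.10 and 0.24 lay below the array medians in every array.

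PARS2, the mitochondrial proline enzyme, read 6.12, 6.43 and 6.50 in NR4A1 WT, 6.63 and 6.72 in NR4A1 CEAA and 6.61, 6.73 and 6.70 in GFP arrays. The first NR4A1 WT array was the lowest by a wide margin. The difference of -0.33 (SE 0.10, adjusted p = 0.0469) passed, but in only 1 of the 8 fits that each left out 1 array, with adjusted p from 0.0286 to 0.134. FARS2, which charges mitochondrial tRNA with phenylalanine as a single chain, went the other way. It read 8.58, 8.67 and 8.67 in NR4A1 WT and 8.23 and 8.36 in NR4A1 CEAA, against 8.47, 8.37 and 8.42 in GFP arrays, a rise of 1.17-fold after NR4A1 WT (log2 difference 0.22, SE 0.06, adjusted p = 0.0304) that passed in 3 of the 8 such fits. Its other probe sets were at 0.11 and 0.19 with no call, and the one at 0.19 lay below the array medians in every array. The other 9 mitochondrial genes passed in neither direction: AARS2 (0.18), VARS2 (0.11), LARS2 (0.10), RARS2 (0.08), SARS2 (0.06), WARS2 (0.04), IARS2 (0.03), HARS2 (0.00) and YARS2 (-0.08).

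**Figure D2:**
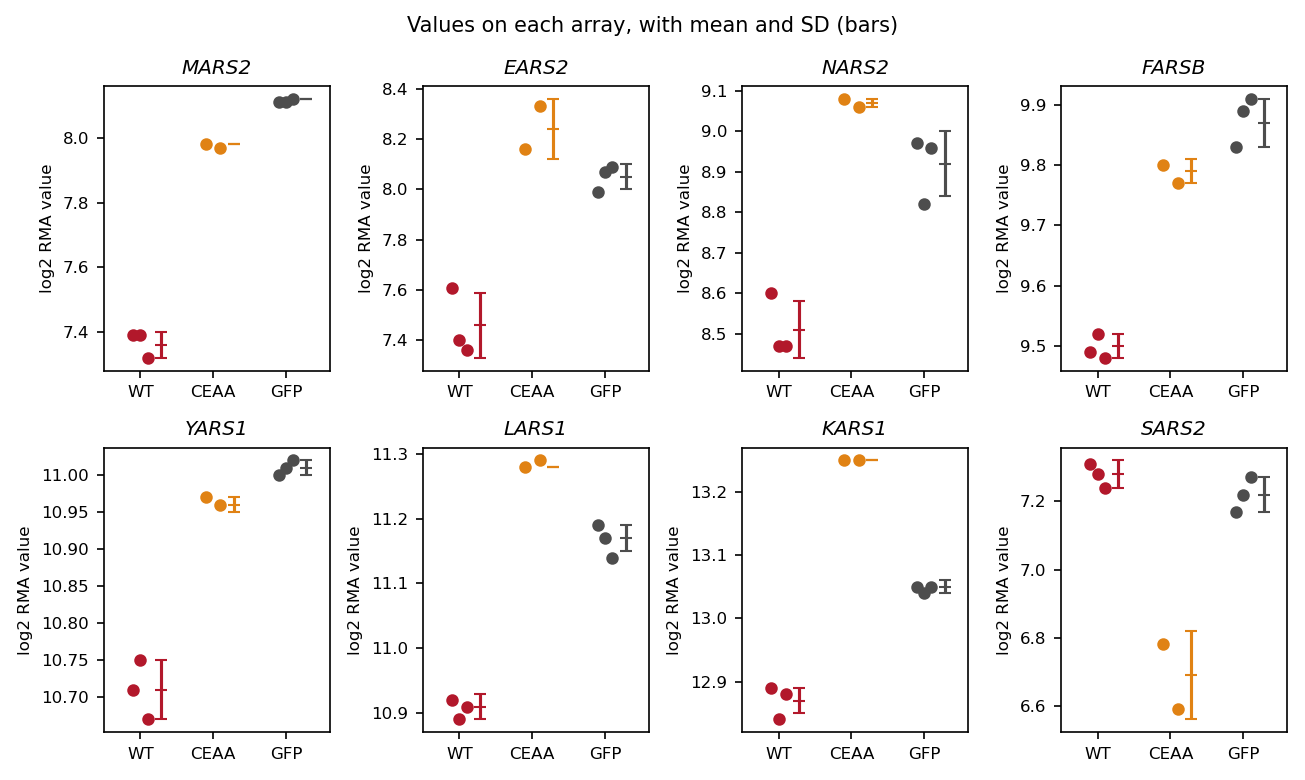
Log2 RMA values (vertical axis, its range set for each gene) of 8 synthetase genes on each array (points) with the group mean and SD beside them, for NR4A1 WT (n = 3), NR4A1 CEAA (n = 2) and GFP (n = 3). NR4A1 WT lies lowest for every gene shown but SARS2, whose lowest values, 6.78 and 6.59, are those of NR4A1 CEAA.

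In the cytosol the largest falls were in both subunits of the phenylalanine enzyme, a tetramer of 2 FARSA and 2 FARSB chains. FARSA, the catalytic chain, read 9.26, 9.38 and 9.35 in NR4A1 WT and 8.23 and 8.44 in NR4A1 CEAA, against 9.88, 9.80 and 9.94 in GFP arrays. The 3 groups did not overlap. FARSA was 1.46-fold lower in NR4A1 WT (log2 difference -0.54, SE 0.07, adjusted p = 0.00121). FARSB read 9.49, 9.52 and 9.48 in NR4A1 WT, 9.80 and 9.77 in NR4A1 CEAA and 9.83, 9.89 and 9.91 in GFP arrays. It was 1.30-fold lower after NR4A1 WT (log2 difference -0.38, SE 0.05, adjusted p = 8.91e-04), while its 2 other probe sets, 223036_at (0.08) and 232063_x_at (-0.12), did not pass. Both of these lay below the array medians in every array.

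YARS1, for tyrosine, and LARS1, for leucine and also known as a leucine sensor of the mTORC1 pathway, were next. YARS1 read 10.71, 10.75 and 10.67 in NR4A1 WT, 10.97 and 10.96 in NR4A1 CEAA and 11.00, 11.01 and 11.02 in GFP arrays. LARS1 read 10.92, 10.89 and 10.91 in NR4A1 WT, 11.28 and 11.29 in NR4A1 CEAA and 11.19, 11.17 and 11.14 in GFP arrays. In both genes all NR4A1 WT arrays were below all others. The falls were 1.23-fold for YARS1 (log2 difference -0.30, SE 0.05, adjusted p = 0.00256) and 1.20-fold for LARS1 (-0.26, SE 0.05, adjusted p = 0.00421). Of the other LARS1 probe sets 222428_s_at was lower too (-0.32, adjusted p = 0.0255), and the rest, like the other YARS1 probe set (-0.36, adjusted p = 0.0716), had no call.

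IARS1, for isoleucine, whose promoter holds both elements, read 11.89, 11.86 and 11.90 in NR4A1 WT, 12.16 and 12.24 in NR4A1 CEAA and 12.08, 12.12 and 12.09 in GFP arrays. It was 1.16-fold lower after NR4A1 WT (log2 difference -0.22, SE 0.05, adjusted p = 0.0149), and the call ended without GFP replicate 2 (adjusted p = 0.0594). VARS1, for valine, read 8.66, 8.80 and 8.63 in NR4A1 WT, 8.51 and 8.53 in NR4A1 CEAA and 8.90, 8.92 and 8.90 in GFP arrays. Both NR4A1 forms were below GFP. Its difference after NR4A1 WT, -0.21 (SE 0.06, adjusted p = 0.0333), passed in 1 of the 8 fits without 1 array, and its other probe set read -0.11 with no call.

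KARS1, the lysine enzyme, was the only member that passed in opposite directions in the 2 comparisons with GFP. It read 12.89, 12.84 and 12.88 in NR4A1 WT and 13.25 and 13.25 in NR4A1 CEAA, against 13.05, 13.04 and 13.05 in GFP arrays. The 3 groups did not overlap. KARS1 was lower by 1.13-fold in NR4A1 WT (log2 difference -0.18, SE 0.04, adjusted p = 0.0248) and higher by 1.15-fold in NR4A1 CEAA (0.20, SE 0.05, adjusted p = 0.0264). Each call passed in 3 of the 8 fits without 1 array. The direct difference of NR4A1 WT from NR4A1 CEAA, -0.38 (SE 0.05, adjusted p = 7.1e-04), passed in all 8. That direct difference follows from the 2 opposite ones and is no separate support. The other KARS1 probe set, 200079_s_at, was lower after NR4A1 WT (-0.24, adjusted p = 0.0358) and at 0.03 with no call after NR4A1 CEAA.

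The 10 other cytosolic genes did not pass after NR4A1 WT: GARS1 (-0.15), RARS1 (-0.15), NARS1 (-0.14), HARS1 (-0.14), TARS1 (-0.13), EPRS1 (-0.11), WARS1 (-0.10), AARS1 (-0.04), CARS1 (-0.04) and SARS1 (-0.02). Among genes with no call by their brightest probe set, EPRS1 was lower by 200841_s_at (-0.47, adjusted p = 0.0429), and the mitochondrial RARS2 by 232901_at (-0.36, adjusted p = 0.0374), while their remaining probe sets had no call. Probe set 232901_at lay below the array medians in every array. By their brightest probe sets, the NR4A1 WT arrays of GARS1, RARS1, NARS1, TARS1 and EPRS1 lay below all GFP arrays. How many of all genes do so was not counted, so this separation is not read as a fall in these genes. By 200842_s_at the EPRS1 arrays overlapped (9.50, 9.46 and 8.94 in NR4A1 WT against 9.50, 9.57 and 9.48 in GFP). With dim probe sets left out of the test, or with the spread allowed to follow the intensity, GARS1, NARS1, RARS1 and TARS1 passed as lower. EPRS1 passed as lower only with the spread allowed to follow the intensity. Under the other alternatives these genes had no call. Of the 11 listed members of the multi-synthetase complex 6 were measured. Of these, 3 were lower (LARS1, IARS1 and KARS1) and 0 higher, against 10.3% and 9.97% of all genes. Of all 17 cytosolic genes 7 were lower and 0 higher. At an unadjusted p under 0.05 the counts for the complex were 4 and 0, and by Rank Product 0 and 0. The unused probe sets of MARS1 and QARS1, also in the complex, were at -0.03 to 0.08 with no call. Split by the fold of the catalytic domain, 4 of 8 class I and 3 of 9 class II enzymes of the cytosol were lower, against the same 10.3%.

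**Figure D3:**
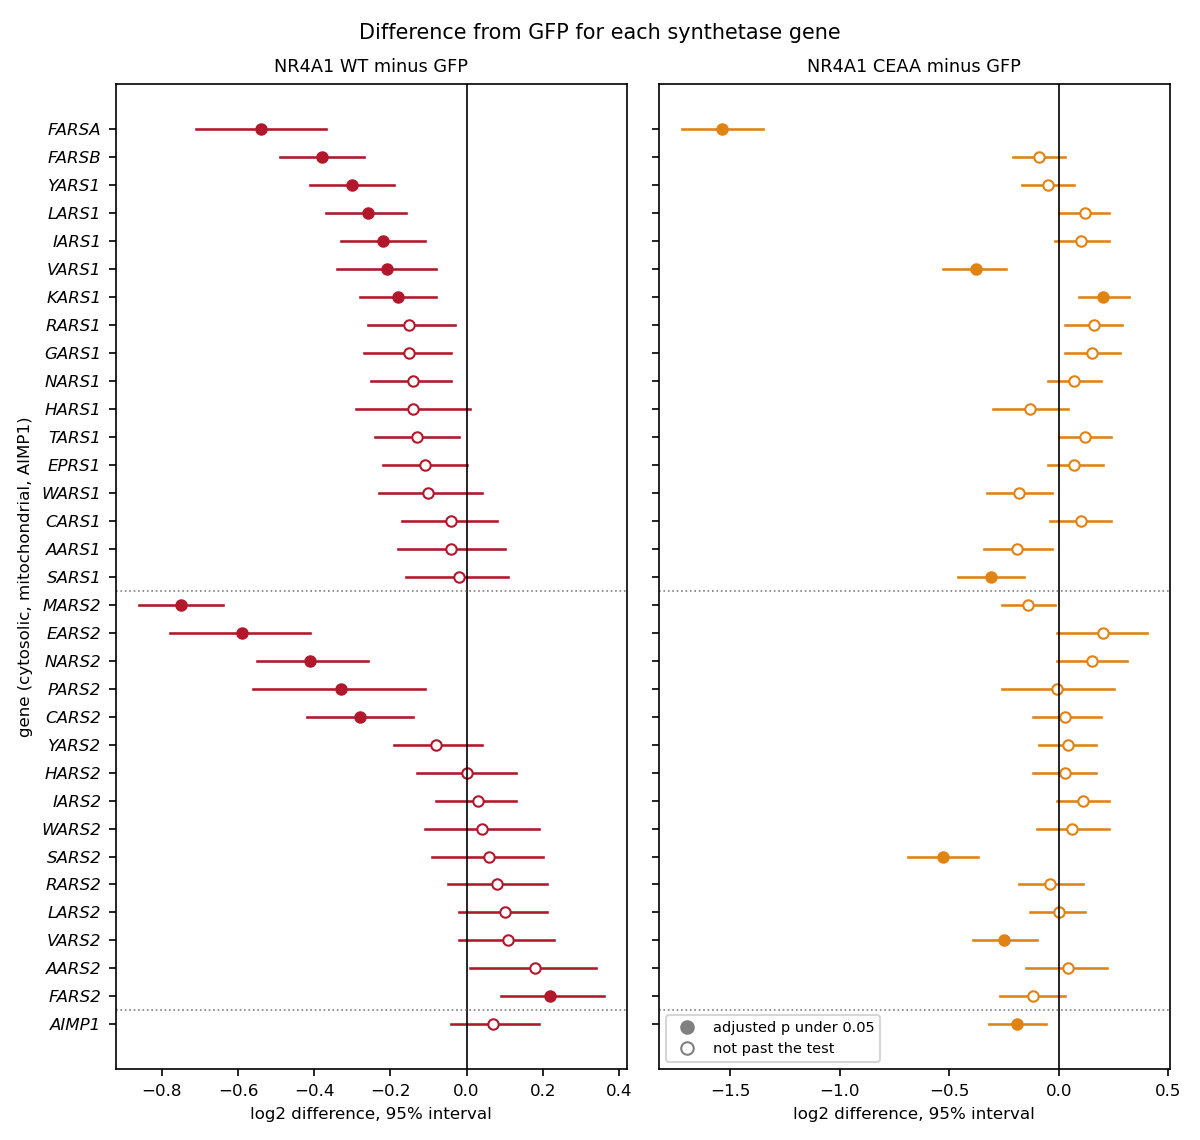
Log2 difference from GFP with its 95% interval (horizontal axis) for each gene (vertical axis), NR4A1 WT on the left and NR4A1 CEAA on the right, filled where the adjusted p was under 0.05; the axes have different ranges. On the left every cytosolic point is below 0 and the lowest point is MARS2 at -0.75; on the right FARSA stands apart at -1.54.

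All 4 measured genes with an E-box in the window, MARS2, EARS2, CARS2 and IARS1, were lower after NR4A1 WT, against 10.3% of all genes. The share of lower genes among all genes with an E-box was not taken. The CARS2 and IARS1 calls ended without GFP replicate 2. After NR4A1 CEAA none of the 4 had a call by its brightest probe set: MARS2 (-0.14), EARS2 (0.20), CARS2 (0.03) and IARS1 (0.10). Of the measured genes with a window but no E-box, 3 of 13 cytosolic and 2 of 10 mitochondrial ones were lower. LARS1, VARS1 and YARS1, also lower, had no window. Of the measured cytosolic genes with the C/EBP-ATF element, 1 of 6 was lower (IARS1), and AARS1 and CARS1, which hold it, were at -0.04. Of those with a window and without it, 3 of 8 were. The share of genes with either element is a description of few genes, and no site was tested. MYC itself read 10.24, 10.23 and 10.18 in NR4A1 WT and 12.11 and 12.14 in NR4A1 CEAA, against 11.52, 11.59 and 11.55 in GFP arrays, so it was lower after NR4A1 WT (log2 difference -1.33, adjusted p = 1.70e-06) and higher after NR4A1 CEAA (0.57, adjusted p = 8.49e-04). ATF4 was at -0.08 after NR4A1 WT with no call (adjusted p = 0.396) and lower after NR4A1 CEAA (-0.50, adjusted p = 0.0022). The part of either factor in the synthetase values was not tested.

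NR4A1 CEAA was compared with the same 3 GFP arrays, to ask what remained with the mutated DNA binding domain. Of the cytosolic genes 3 were lower (FARSA, VARS1 and SARS1) and 1 was higher (KARS1). This balance was not stable, with 5 lower and 5 higher at an unadjusted p under 0.05, 5 and 6 with an intensity trend, and 1 and 0 by Rank Product. Of the mitochondrial genes 2 were lower (SARS2 and VARS2) and 0 higher (3 and 0 at an unadjusted p under 0.05, 0 and 0 by Rank Product), and AIMP1 was lower. Over all genes 12.1% were lower and 7.14% higher. The median was 0.07 for the cytosolic and 0.03 for the mitochondrial genes, against -0.03 for all genes. Both GFP comparisons share their control arrays, so their values are only set side by side.

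FARSA had the largest difference of any member. It was 2.90-fold lower in NR4A1 CEAA than in GFP arrays (log2 difference -1.54, SE 0.08, adjusted p = 1.76e-04). In this comparison FARSB, the partner chain, was at -0.09 with no call (95% interval -0.21 to 0.03). These values came from probe set 216602_s_at, and the other one gave a smaller difference. That probe set, 202159_at, read 8.69, 8.86 and 8.64 in NR4A1 WT, 8.93 and 8.88 in NR4A1 CEAA and 9.21, 9.16 and 9.21 in GFP arrays. It was lower after both mRNAs, by -0.47 after NR4A1 WT (adjusted p = 0.00369 over all probe sets) and by -0.29 after NR4A1 CEAA (adjusted p = 0.0498).

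The serine and valine enzymes of both compartments were lower after NR4A1 CEAA by their brightest probe sets. SARS2 read 7.31, 7.28 and 7.24 in NR4A1 WT and 6.78 and 6.59 in NR4A1 CEAA, against 7.17, 7.22 and 7.27 in GFP arrays, a fall of 1.45-fold after NR4A1 CEAA (log2 difference -0.53, SE 0.07, adjusted p = 0.00245). SARS1, which also charges the tRNA on which selenocysteine is made, read 10.16, 10.25 and 10.23 in NR4A1 WT and 9.88 and 9.97 in NR4A1 CEAA, against 10.22, 10.18 and 10.31 in GFP arrays. In both genes the NR4A1 CEAA arrays were below all others. SARS1 was 1.24-fold lower (log2 difference -0.31, SE 0.06, adjusted p = 0.0133), but its other, dimmer probe set was at 0.40 with no call. VARS1 was 1.31-fold lower after NR4A1 CEAA (log2 difference -0.38, SE 0.06, adjusted p = 0.00564), but its other probe set was at -0.02 with no call. The SARS1 and VARS1 calls ended with probe set means and with Rank Product. Without NR4A1 CEAA replicate 1 the adjusted p was 0.109 for SARS1 and 0.0514 for VARS1.

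VARS2 read 8.87, 8.94 and 9.00 in NR4A1 WT and 8.58 and 8.59 in NR4A1 CEAA, against 8.78, 8.89 and 8.83 in GFP arrays. Only the NR4A1 CEAA arrays stood apart. It was 1.19-fold lower there (log2 difference -0.25, SE 0.06, adjusted p = 0.0269), a call that held in 4 of the 8 fits without 1 array. AIMP1 read 10.73, 10.83 and 10.78 in NR4A1 WT and 10.54 and 10.49 in NR4A1 CEAA, against 10.71, 10.68 and 10.73 in GFP arrays. Its difference of -0.19 after NR4A1 CEAA (SE 0.06, adjusted p = 0.0485) held in 2 of those 8 fits.

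For several members the probe sets of 1 gene gave different answers after NR4A1 CEAA. EPRS1, which charges both glutamate and proline, was at 0.07 with no call by its brightest probe set. By 200842_s_at it read 9.50, 9.46 and 8.94 in NR4A1 WT and 10.74 and 10.91 in NR4A1 CEAA, against 9.50, 9.57 and 9.48 in GFP arrays, a log2 difference of 1.30 after NR4A1 CEAA (adjusted p = 0.00177 over all probe sets). By 200841_s_at the difference was 1.39 (adjusted p = 7.89e-04). Thus 2 of the 3 EPRS1 probe sets rose after NR4A1 CEAA and the one used did not pass.

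LARS1 showed the same kind of split. Its probe set 223888_s_at read 5.98, 6.03 and 5.92 in NR4A1 WT and 8.25 and 8.46 in NR4A1 CEAA, against 6.14, 6.37 and 6.27 in GFP arrays, a log2 difference of 2.09 after NR4A1 CEAA (adjusted p = 6.6e-05). The 3 brighter LARS1 probe sets were at 0.12, 0.17 and 0.17 with no call. FARSB rose by 232063_x_at (0.74, adjusted p = 0.0119), a probe set below the array medians in every array. AIMP1 rose by 202541_at (0.37, adjusted p = 0.0109) while its brightest probe set was lower. WARS1, for tryptophan, was at -0.18 with no call by its brightest probe set and lower by 200628_s_at (-0.45, adjusted p = 0.00443). EARS2 was at 0.20 with no call and lower by 225993_at (-0.36, adjusted p = 0.0183). What the arrays read at the different probe sets of a gene, such as other ends or forms of its transcript, was not tested.

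**Figure D4:**
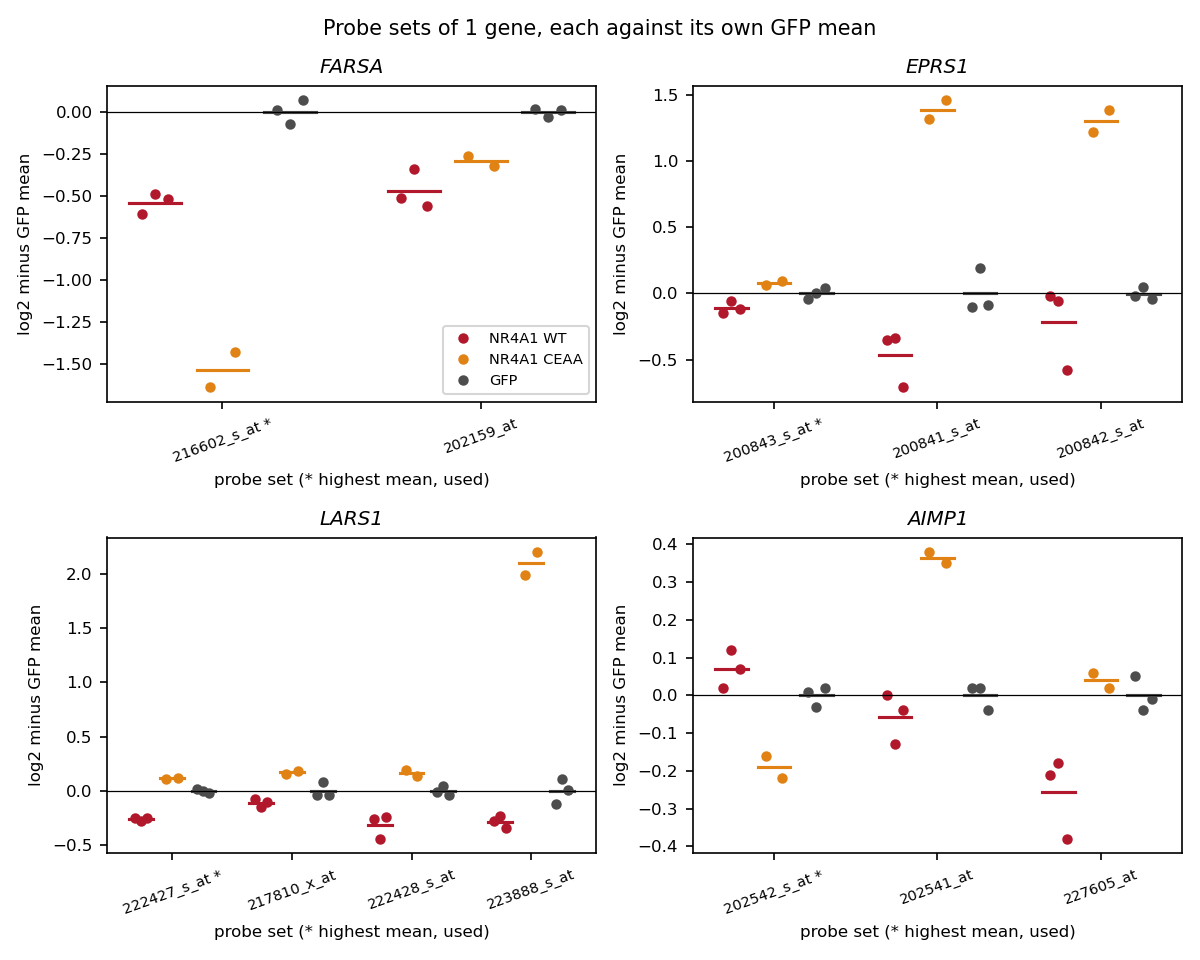
Log2 value minus the GFP mean of the same probe set (vertical axis) for each probe set of FARSA, EPRS1, LARS1 and AIMP1 (horizontal axis, the one used marked by an asterisk), with points for arrays and lines for group means of NR4A1 WT, NR4A1 CEAA and GFP. The NR4A1 CEAA points differ by probe set, at a mean of 2.09 for 223888_s_at of LARS1 against 0.12 for its brightest probe set.

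Across the members, 6 of the 7 cytosolic genes called after NR4A1 WT had another probe set of their own, and in 3 of them (FARSA, KARS1 and LARS1) at least 1 other probe set passed in the same direction. The same held for 1 of 3 mitochondrial genes (EARS2). After NR4A1 CEAA it held for 1 of 4 cytosolic genes (FARSA). The 5 probe sets of MARS1, QARS1 and TARS2, which were listed with a further symbol, were between -0.04 and 0.08 after NR4A1 WT with no call. After NR4A1 CEAA 1 of them passed, 201475_x_at of MARS1, at -0.27.

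NR4A1 WT set directly against NR4A1 CEAA tests the difference between the 2 forms of the receptor. Of the 17 cytosolic genes, 10 were lower in NR4A1 WT and 2 were higher, with a median of -0.22, against 13.4% lower and 18.0% higher and a median of 0.03 over all genes. The 10 were KARS1 (-0.38), LARS1 (-0.38), IARS1 (-0.32), GARS1 (-0.31), RARS1 (-0.31), FARSB (-0.29), TARS1 (-0.25), YARS1 (-0.25), NARS1 (-0.22) and EPRS1 (-0.18). The brightest EPRS1 probe set held in 1 of the 8 fits without 1 array, but both others were lower by far more, 200841_s_at at -1.86 (adjusted p = 5.27e-05 over all probe sets) and 200842_s_at at -1.52 (adjusted p = 2.51e-04). LARS1 was likewise at -2.38 by 223888_s_at (adjusted p = 3.06e-06). NARS1 ended without NR4A1 CEAA replicate 1 (adjusted p = 0.0913). FARSA was 1.99-fold higher in NR4A1 WT than in NR4A1 CEAA (log2 difference 0.99, SE 0.08, adjusted p = 7.6e-05), though its other probe set was at -0.18 with no call, and SARS1 was higher (0.29, adjusted p = 0.00967).

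Of the mitochondrial genes, 4 were lower in NR4A1 WT than in NR4A1 CEAA and 3 were higher. The lower ones were EARS2 (-0.79, adjusted p = 3.39e-04), MARS2 (-0.61, adjusted p = 9.3e-05), NARS2 (-0.55, adjusted p = 6.00e-04) and CARS2 (-0.31, adjusted p = 0.00805). The other EARS2 probe sets were between -0.18 and -0.05 with no call. Probe set 1557179_s_at of CARS2 was higher (0.38, adjusted p = 0.00985), though below the array medians in every array. SARS2 (0.59), VARS2 (0.35) and FARS2 (0.34) were the higher ones. Of the 11 listed members of the multi-synthetase complex, all 6 measured ones passed, 5 lower and AIMP1 higher (0.26, adjusted p = 0.00788). Over all genes 13.4% were lower and 18.0% higher, and of the 17 cytosolic genes 10 were lower and 2 higher. By its other 2 probe sets AIMP1 was lower, at -0.42 and -0.30. The unused probe sets of MARS1 and QARS1, also in the complex, were not called lower. For MARS1, 201475_x_at was higher in NR4A1 WT (0.35, adjusted p = 0.00497), and 213671_s_at (-0.07) and 213672_at (-0.08) had no call. QARS1 was at 0.03 with no call. Without NR4A1 CEAA replicate 2 the AIMP1 call ended (adjusted p = 0.0641), as did that of CARS2 and of SARS1 without NR4A1 CEAA replicate 1 (0.0576 and 0.085).

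Cytosolic and mitochondrial enzymes for the same amino acid were set side by side in 15 pairs over 14 amino acids. FARSA and FARSB were each paired with FARS2, and EPRS1 with both EARS2 and PARS2, so these pairs share a gene. After NR4A1 WT the cytosolic gene had the lower log2 difference in 11 of the 15 pairs, or for 10 of the 14 amino acids. The exceptions were cysteine, glutamate, proline and asparagine, where CARS2, EARS2, PARS2 and NARS2 were the lower ones. These 15 pairs were not tested as a group. In no pair were both genes called lower. The phenylalanine pairs were called in opposite directions, FARSA and FARSB lower and FARS2 higher. After NR4A1 CEAA the cytosolic gene had the lower log2 difference in 9 of 15 pairs. By the brightest probe sets both genes were then called lower for serine and for valine. The other probe sets of SARS1 (0.40) and VARS1 (-0.02) had no call.

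**Figure D5:**
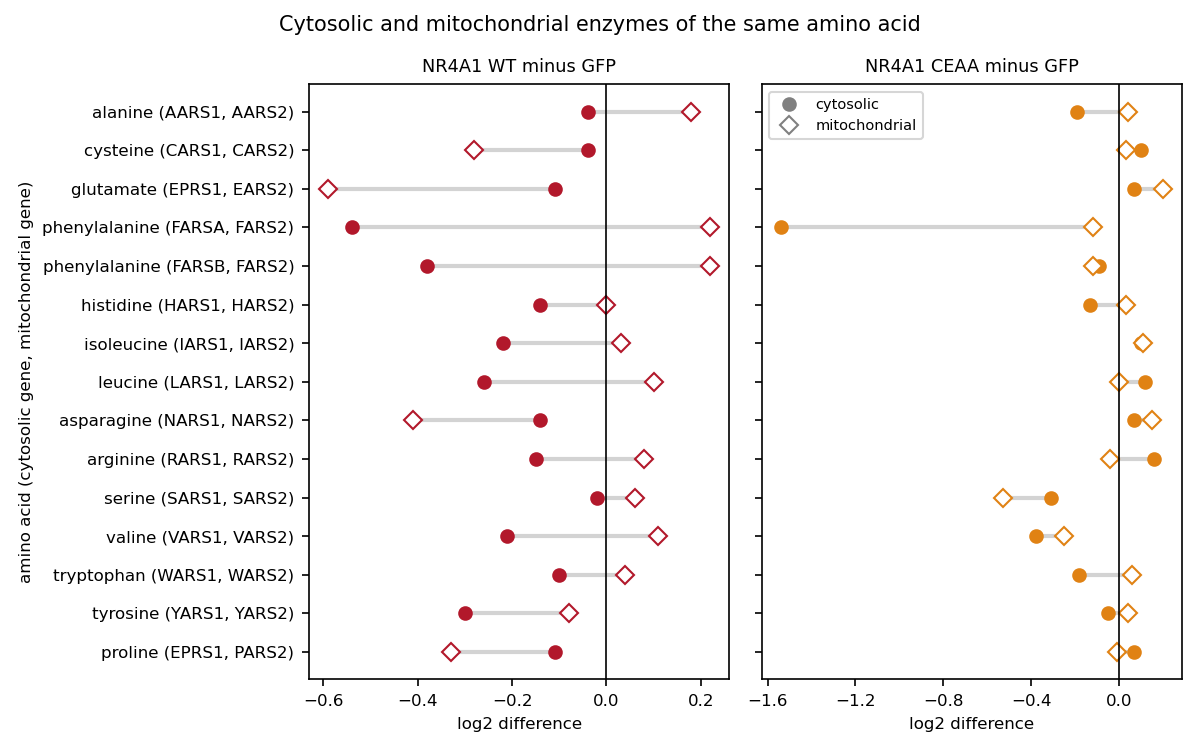
Log2 difference from GFP (horizontal axis) of the cytosolic gene (circle) and the mitochondrial gene (diamond) for each amino acid (vertical axis), NR4A1 WT on the left and NR4A1 CEAA on the right, on different scales. After NR4A1 WT the circle lies left of the diamond in 11 of 15 pairs, and after NR4A1 CEAA both serine and both valine genes lie below 0.

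HARS1 and HARS2, for histidine, are neighbors that start head to head. Their promoter windows on chr5 share 184 of 300 bases, at chr5:140691321-140691504 (GRCh38.p14). HARS1 read 9.34, 9.48 and 9.35 in NR4A1 WT and 9.32 and 9.48 in NR4A1 CEAA, against 9.56, 9.48 and 9.56 in GFP arrays, and neither difference passed (-0.14 and -0.13). HARS2 was at 0.00 and 0.03. The values of both genes overlapped between groups.

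Other steps in the life of a tRNA were followed with lists of related genes. Among 9 measured partners of tRNA charging, whose median after NR4A1 WT was -0.06, 3 were lower and 2 higher, against 10.3% and 9.97% of all genes. DTD2, a deacylase that removes wrongly joined amino acids from tRNA, was lower after NR4A1 WT (-0.59, adjusted p = 4.08e-04) and higher after NR4A1 CEAA (0.32, adjusted p = 0.017). DTD1, which removes D-amino acids from tRNA, was higher after NR4A1 WT (0.54, adjusted p = 3.12e-04). QRSL1, the subunit of the mitochondrial amidotransferase that completes the glutamine tRNA begun by EARS2, was lower after NR4A1 WT (-0.30, adjusted p = 0.00265) and higher after NR4A1 CEAA (0.24, adjusted p = 0.0159).

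Larger falls were found among the genes that make and modify tRNA. Of 27 measured genes of tRNA transcription, maturation and export, whose median after NR4A1 WT was -0.15, 12 were then lower and 3 higher (10.3% and 9.97% of all genes), and 10 were lower and 2 higher after NR4A1 CEAA (12.1% and 7.14% of all genes). RPP40 (-0.91, adjusted p = 3.98e-05) and RPP25 (-0.84, adjusted p = 2.24e-05), subunits of RNase P and RNase MRP, and TSEN54 (-0.89, adjusted p = 8.15e-05), a subunit of the tRNA splicing endonuclease, had the largest falls. RPP25 was also lower after NR4A1 CEAA (-0.82, adjusted p = 3.11e-04). Of 38 measured genes of tRNA modification, whose median after NR4A1 WT was -0.18, 16 were then lower and 3 higher (10.3% and 9.97% of all genes). By Rank Product these counts were 2 and 0. After NR4A1 CEAA the median was -0.03, and 6 were lower and 5 higher (12.1% and 7.14% of all genes). The pseudouridine synthases PUS7 (-1.17, adjusted p = 4.38e-06) and PUS1 (-0.86, adjusted p = 1.74e-04) and METTL1 (-0.50, adjusted p = 4.95e-04), which methylates guanosine in tRNA, led the falls after NR4A1 WT. PUS7 was higher after NR4A1 CEAA (0.29, adjusted p = 0.0117).

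Downstream of charging, 2 of 7 measured elongation factors were lower after NR4A1 WT, against 10.3% of all genes, and their median was -0.03. Both calls were small and in mitochondrial factors: TSFM (-0.19, adjusted p = 0.0381) and GFM1 (-0.19, adjusted p = 0.0412). Of 14 genes of the amino acid response through GCN2 and ATF4, NR4A1 WT left 6 lower and 1 higher (10.3% and 9.97% of all genes), and 5 were lower and 0 higher after NR4A1 CEAA (12.1% and 7.14% of all genes; 6 and 3 at an unadjusted p under 0.05, 0 and 0 by Rank Product). STC2, a secreted glycoprotein, read 5.28, 4.93 and 5.06 in NR4A1 WT and 7.08 and 7.14 in NR4A1 CEAA, against 6.69, 6.83 and 6.86 in GFP arrays (log2 difference -1.70 after NR4A1 WT, adjusted p = 1.12e-05). TRIB3, a pseudokinase, was lower after NR4A1 WT (-0.78, adjusted p = 8.15e-05) and after NR4A1 CEAA (-0.25, adjusted p = 0.0425).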

How the data were processed

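RNA of 8 samples of Kasumi-1 cells was hybridized to Affymetrix arrays. The deposited log2 values were made by the authors with RMA in RMA Express (version not given in the sources used here), which corrects background, normalizes by quantiles and summarizes probes. They ran from 2.29 to 14.97 over 54613 probe sets, with array medians of 4.755 to 4.802. GEO's platform annotation listed 41091 probe sets with 1 symbol, 1801 with several and 11721 with none, and only the first kind was used. For each of 19775 genes the brightest such probe set was kept. Probes differ in how brightly they bind, so no level was set against that of another probe set.

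The groups, taken from the labels, were compared with limma 3.58.1 in R 4.3.3 in 1 linear model over all 8 arrays (8.04 degrees of freedom per gene), with Benjamini-Hochberg adjustment over all genes and calls at an adjusted p under 0.05. The script was tested on simulated data. Other probe sets were tested over all probe sets. Rank Product (100 permutations), the methods' test, was an alternative, as were an intensity trend, array weights, fits of 2 groups, a filter on dim probe sets, centering, repeated quantile normalization, a replicate block, all probe sets, probe set means and leaving out each array. Values on all arrays are given for the members past the test with the largest differences, for AIMP1 and for members called in opposite directions; HARS1 and FARS2 were added after their values were seen. Members and gene lists were chosen with earlier results of these data known. The number of arrays limits precision. A planned comparison of protein sequences was not run.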

Additional observations from a re-analysis of the deposited data

Results flagged for a closer look

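KARS1 was singled out because it passed in opposite directions against GFP after the 2 forms of the receptor, and the direct test of their difference passed as well. That log2 difference of NR4A1 WT from NR4A1 CEAA was -0.38 (SE 0.05, adjusted p = 7.1e-04 by limma), with every NR4A1 WT array below and every NR4A1 CEAA array above all GFP arrays. The direct difference is the gap between the 2 opposite differences from GFP, so its passing followed from the choice and adds no separate support. The direct test alone is not particular to KARS1: 14 of the 33 members were lower and 6 higher by it, among them LARS1 at -0.38 and FARSA at 0.99. By its other probe set the KARS1 difference was -0.27 (adjusted p = 0.0178). That probe set was at 0.03 with no call after NR4A1 CEAA against GFP.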

How the results depend on the processing

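Of the counts after NR4A1 WT against GFP, that of lower cytosolic genes was 7, and 12 with an intensity trend, 11 without dim probe sets and 0 with Rank Product. Lower mitochondrial genes were 5, and 1 with Rank Product (MARS2). Higher mitochondrial genes were 1, and 0 with all probe sets, with probe set means and with Rank Product. After NR4A1 CEAA against GFP, lower cytosolic genes were 3, and 5 with the trend, 5 without dim probe sets and 1 with Rank Product (FARSA). Higher cytosolic genes were 1, and 6 with the trend, 3 with array weights, 3 without dim probe sets, 3 with repeated quantile normalization, 3 with probe set means, 0 with all probe sets and 0 with Rank Product. Lower mitochondrial genes were 2, and 1 with repeated quantile normalization, 1 with all probe sets and 0 with Rank Product; higher ones were 0, and 1 with the trend. Between NR4A1 WT and NR4A1 CEAA, Rank Product gave 0 lower and 1 higher cytosolic gene (FARSA) and 0 mitochondrial genes in either direction, against 10, 2, 4 and 3, and the trend gave 4 higher cytosolic genes.

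Leaving out each array in turn gave 4 to 6 lower cytosolic, 3 to 5 lower mitochondrial and 0 to 1 higher mitochondrial genes after NR4A1 WT, the lowest cytosolic count without GFP replicate 2. After NR4A1 CEAA it gave 1 to 3 lower and 0 to 1 higher cytosolic and 1 to 2 lower mitochondrial genes. For NR4A1 WT against NR4A1 CEAA it gave 8 to 10 lower and 1 to 2 higher cytosolic and 3 to 5 lower mitochondrial genes. Fits without an NR4A1 CEAA array assume that the remaining one varies like the other groups. With probe set means the sign turned for SARS1 (0.04) and AIMP1 (0.07) after NR4A1 CEAA, and for CARS2 (0.02) and AIMP1 (-0.15) between the 2 forms.

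Arrays with the same replicate number did not visibly deviate together (r over genes from -0.04 to 0.09, and from -0.09 to 0.09 with different numbers). With 2 or 3 arrays in a group this cannot show whether samples of the same number were prepared together. With the replicate number as a block the counts after NR4A1 WT were 5 lower cytosolic and 0 higher mitochondrial genes, and after NR4A1 CEAA 0 higher cytosolic genes and 1 lower mitochondrial gene. MARS2 after NR4A1 WT, and FARSA in both comparisons with NR4A1 CEAA, passed under all 18 alternatives, while EARS2, FARSA, LARS1, NARS2 and YARS1 after NR4A1 WT ended with Rank Product only. The causes of these changes were not tested.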
